A study of Mus musculus with 7 samples.

Results

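The genes described here are 42 mouse genes for the glycoproteins and proteoglycans of the extracellular matrix and the cell surface, of 27179 gene identifiers counted in the series. They were taken from a list of names and matched to the count tables by gene identifier, and all 42 were found. By role they fall into 8 groups: 9 adhesive and matricellular glycoproteins, 5 members of the SPARC family, 5 small leucine-rich proteoglycans, 4 hyaluronan-binding proteoglycans, 4 basement membrane components, 7 elastic fibre components, 4 glypicans and 4 syndecans.

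The study compared neural crest-derived cells of the small bowel with those of subcutaneous fat, both freshly isolated and grown as neurospheres (floating balls of cells grown in medium with mitogens). All 7 groups came from Wnt1-Cre;R26R-tdT mice, in which Cre driven by the Wnt1 promoter switches on the red protein tdTomato in neural crest cells and in everything that descends from them. Adipose cells were sequenced as sorted tdTomato-positive primary cells and as neurospheres, which were grown from positive cells sorted after 10 days of mixed culture and then cultured for 10 days more. Bowel cells, from the muscle layer with its myenteric plexus, were sequenced as sorted primary cells and as neurospheres grown for 10 days from such cells (M1). Mixed bowel spheroids were cultured for 10 days and sorted into tdTomato-positive and tdTomato-negative cells, called positive and negative spheroid cells below, and neurospheres were grown for 10 further days from the positive cells (M2). The medium contained basic fibroblast growth factor and epidermal growth factor at 20 ng/ml each. Each group is 1 library of RNA from about 50000 cells, an equal pool of 3 mice at 1 month of age (2 females, 1 male). The tdTomato label marks descent from cells that once used the Wnt1 promoter, not a present cell type. With 1 library per group, no difference below has a replicate check, and no test between conditions was possible.

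The extracellular matrix surrounds cells with fibrillar collagens, elastic fibres and basement membranes, and the proteins treated here decorate, link and regulate those structures. Proteoglycans carry chains of sulfated sugars, which hold water and bind growth factors; glypicans and syndecans hold such chains at the cell surface, where fibroblast growth factors depend on heparan sulfate for binding to their receptors. Fibroblasts are the main source of collagen-binding proteoglycans such as decorin and lumican in connective tissue. Glial and Schwann cells lay down basement membranes and, in nervous tissue, brain-type proteoglycans such as neurocan and brevican.

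The libraries held 51885106 to 65301500 reads assigned to genes, and values are given as CPM (the reads of a gene scaled to the total of its library). A count of 3 reads, the floor used where a gene had 0, equals 0.0459 to 0.0578 CPM. A gene was counted as higher or lower in a comparison where the log2 ratio of scaled reads reached 4-fold and its 95% counting interval lay wholly beyond 2-fold; a gene counted as measured at 1 CPM or more in either library. The labels were checked against marker genes. Sox10, a transcription factor of neural crest and glial cells, was at 98 to 899.6 CPM in the 6 libraries labelled positive and at 5.23 CPM in the negative spheroid cells. Transcripts of other cell types were also present in positive libraries. The 7 fibroblast markers summed to 10871 CPM in adipose primary cells and 2331 CPM in bowel primary cells, with 7 of 7 at 1 CPM or more in each, against 12613 CPM (6 of 7, 1 at 0 reads) in the negative spheroid cells and 153 CPM (4 of 7, 0 at 0 reads) in M2 neurospheres. Bowel primary cells held 24364 CPM of 6 smooth muscle markers, 1481 CPM of 6 mesothelial markers and 34533 CPM of 5 pancreatic acinar markers. Of the mesothelial markers, 6 of 6 were at 1 CPM or more in M1 neurospheres, summing to 78.7 CPM, and 0 of 6 in M2 neurospheres, summing to 0.291 CPM. Over the 7 libraries the 5 endothelial markers summed to 1.02 to 131 CPM, the 5 lymphocyte markers to 0.0919 to 229.6 CPM and the 4 adipocyte markers to 0.0306 to 11.7 CPM. The 4 markers of interstitial cells of Cajal, pacemaker cells of the bowel wall, summed to 69.1 to 450.5 CPM. In such bulk libraries, fewer cells of a type and less RNA per cell cannot be told apart.

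All 42 genes reached 1 CPM in at least 1 library, and 29 did so in all 7. Their summed reads were 6.26% of the library in the negative spheroid cells and 1.12% to 2.36% in the 6 positive libraries. By CPM, the negative spheroid cells held the highest level of 15 of the 42 genes, M1 neurospheres of 8, and adipose neurospheres of 6. Adipose neurospheres also held the lowest level of 14 genes. These ranks depend on the scaling, whose factors ran from 0.861 for negative spheroid cells to 1.24 for M1. On scaled reads Gpc3, Spock3 and Tnr were not highest in M1. Between the highest and the lowest library, 36 genes differed by 10-fold or more on scaled reads and 18 by 100-fold or more. The same ranges were not counted over all genes, so these counts do not set the members apart.

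Corrected for exon length, Sparc stood first of the 42 in every positive library, from 744 CPM per kilobase in M1 neurospheres to 2647 CPM per kilobase in adipose primary cells. The negative spheroid cells had a different order: Fn1 stood at 1966 CPM per kilobase, Lum at 1679, Dcn at 1220.3, Thbs4 at 1198 and Thbs1 at 1013. In adipose neurospheres Postn, at 809 CPM per kilobase, came close to Sparc at 859.7. SPARC is a secreted collagen-binding protein, and periostin a matricellular protein of collagen-rich tissue.

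**Figure D1:**
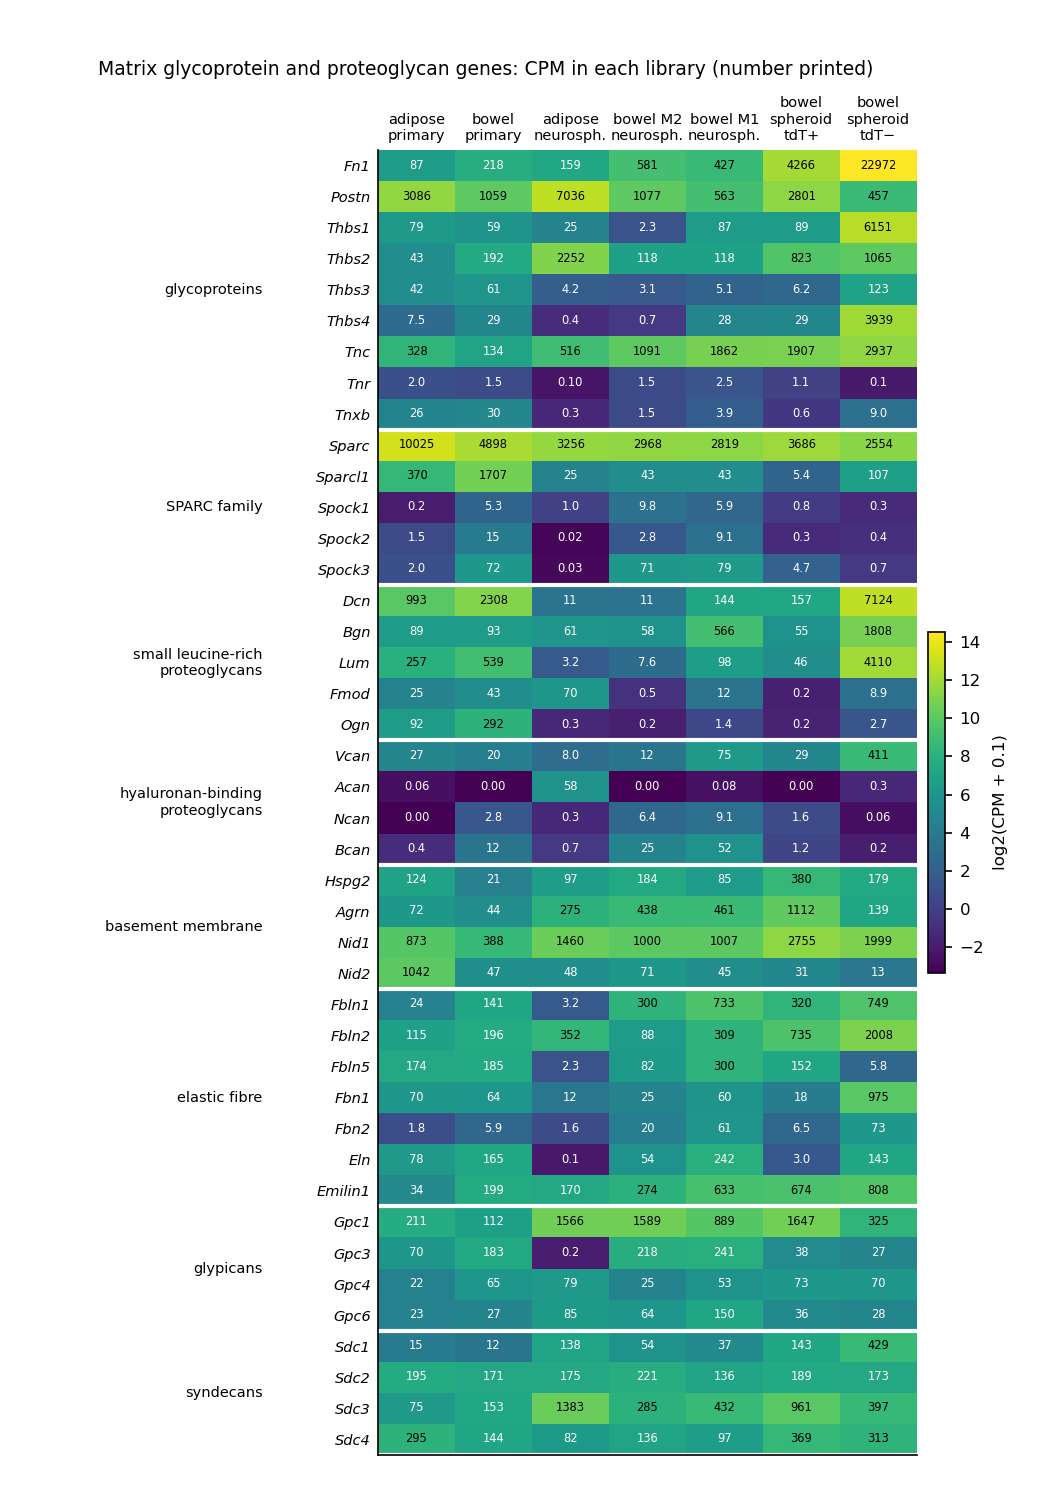
Level of each of the 42 genes in each of the 7 libraries, with the CPM printed and the colour giving log2 of CPM plus 0.1, brighter for higher levels; genes are grouped by role and each column is 1 library. The negative spheroid cells are brightest for Fn1, Thbs1, Thbs4, Dcn, Lum and Bgn, while the Spock genes, Ncan and Bcan are brightest in bowel primary cells, M1 and M2.

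Among the adhesive and matricellular glycoproteins, fibronectin (Fn1), the main ligand of integrins on fibroblasts, had 86.8 and 218 CPM in adipose and bowel primary cells, 159, 581 and 427 CPM in adipose, M2 and M1 neurospheres, and 4266 and 22972 CPM in positive and negative spheroid cells. The negative spheroid cells were the highest and the positive spheroid cells next, and both adipose libraries were the lowest. Periostin (Postn) stood at 2801 CPM in positive and 457 CPM in negative spheroid cells, 3086 and 1059 CPM in primary adipose and bowel cells, and 7036, 1077 and 563 CPM in the adipose, M2 and M1 neurospheres. Unlike Fn1, by CPM it was lowest in the negative spheroid cells and highest in adipose neurospheres. On scaled reads M1 neurospheres were the lowest library for Postn.

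The 4 thrombospondins, secreted calcium-binding glycoproteins that tune adhesion, each had an order of libraries of their own. Thbs1, which can activate latent transforming growth factor beta, was measured at 24.7, 2.3 and 87.2 CPM in neurospheres of adipose tissue, M2 and M1, 79.1 and 59.4 CPM in the primary adipose and bowel cells, and 88.6 and 6151 CPM in the positive and negative cells of spheroids. Its value in the negative cells exceeded each of the 6 others, and M2 neurospheres were lowest. Thbs2 was at 43.2 and 192 CPM in adipose and bowel primary cells, 2252, 118 and 118 CPM in adipose, M2 and M1 neurospheres, and 823 and 1065 CPM in positive and negative spheroid cells; here adipose neurospheres were the highest library and adipose primary cells the lowest. Thbs3 had 6.16 CPM in positive and 123 CPM in negative spheroid cells, 42 and 61 CPM in primary adipose and bowel cells, and 4.17, 3.09 and 5.09 CPM in the adipose, M2 and M1 neurospheres, so that every sorted-positive cultured library lay below both primary libraries. Thbs4, found in tendon and muscle matrix, had 0.373, 0.674 and 27.6 CPM in neurospheres of adipose tissue, M2 and M1, 7.47 and 29 CPM in the primary adipose and bowel cells, and 29.1 and 3939 CPM in the positive and negative cells of spheroids. Its levels spanned more than those of any other of the 42 genes, with adipose neurospheres and M2 both under 1 CPM.

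The tenascins are large oligomeric glycoproteins that modulate adhesion. Tenascin-C (Tnc), a neural crest and wound-associated form, ranged from 134 CPM in bowel primary cells to 2937 CPM in the negative spheroid cells, with 1907 CPM in the positive cells of the same spheroids. Tenascin-R (Tnr), a nervous system form, was low throughout, at 1.97 and 1.54 CPM in adipose and bowel primary cells, 0.0974, 1.5 and 2.51 CPM in adipose, M2 and M1 neurospheres, and 1.07 and 0.139 CPM in positive and negative spheroid cells. Tenascin-XB (Tnxb), a connective tissue form, had 0.65 CPM in positive and 9.03 CPM in negative spheroid cells, 26.2 and 29.6 CPM in primary adipose and bowel cells, and 0.308, 1.47 and 3.91 CPM in the adipose, M2 and M1 neurospheres. Both primary libraries were above every cultured library for Tnxb.

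In the SPARC family, Sparc itself ranged only from 2554 CPM in the negative spheroid cells to 10025 CPM in adipose primary cells. On scaled reads M1 neurospheres were the lowest library for Sparc. Its relative Sparcl1 (hevin, an adhesion-modulating protein made by astrocytes and vessels) had 24.5, 43.1 and 42.8 CPM in neurospheres of adipose tissue, M2 and M1, 369.7 and 1707 CPM in the primary adipose and bowel cells, and 5.35 and 107 CPM in the positive and negative cells of spheroids. Bowel primary cells were the highest for Sparcl1 and the positive spheroid cells the lowest. Spock1, Spock2 and Spock3 encode testicans, secreted proteoglycans best known from the nervous system. Spock1 stood at 0.156 and 5.25 CPM in adipose and bowel primary cells, 1.02, 9.83 and 5.92 CPM in adipose, M2 and M1 neurospheres, and 0.774 and 0.34 CPM in positive and negative spheroid cells. Spock2 was read at 0.325 CPM in positive and 0.448 CPM in negative spheroid cells, 1.5 and 15.3 CPM in primary adipose and bowel cells, and 0.0162, 2.85 and 9.08 CPM in the adipose, M2 and M1 neurospheres, the adipose neurosphere value being 1 read. Spock3 reached 0.0325, 71.1 and 78.9 CPM in neurospheres of adipose tissue, M2 and M1, 1.97 and 72.2 CPM in the primary adipose and bowel cells, and 4.67 and 0.665 CPM in the positive and negative cells of spheroids, and the adipose neurosphere value rests on 2 reads. The 3 Spock genes were above 2 CPM in bowel primary cells, M1 and M2, and at or below it in both adipose libraries and the negative spheroid cells. The positive spheroid cells passed 2 CPM for Spock3 alone.

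The small leucine-rich proteoglycans bind collagen fibrils and set their diameter. Decorin (Dcn) had 993 and 2308 CPM in adipose and bowel primary cells, 11.3, 11 and 144 CPM in adipose, M2 and M1 neurospheres, and 157 and 7124 CPM in positive and negative spheroid cells. Lumican (Lum) was measured at 45.6 CPM in positive and 4110.0 CPM in negative spheroid cells, 257 and 539 CPM in primary adipose and bowel cells, and 3.17, 7.64 and 98.4 CPM in the adipose, M2 and M1 neurospheres. For both genes the negative spheroid cells were highest, bowel primary cells next, and M2 and adipose neurospheres the lowest. Biglycan (Bgn) stood at 61.2, 57.7 and 566 CPM in neurospheres of adipose tissue, M2 and M1, 88.9 and 92.8 CPM in the primary adipose and bowel cells, and 54.5 and 1808 CPM in the positive and negative cells of spheroids, with M1 neurospheres second to the negative cells. Fibromodulin (Fmod) was at 25 and 42.6 CPM in adipose and bowel primary cells, 70.1, 0.521 and 11.6 CPM in adipose, M2 and M1 neurospheres, and 0.201 and 8.92 CPM in positive and negative spheroid cells; adipose neurospheres were its highest library. Osteoglycin (Ogn) reached 0.232 CPM in positive and 2.66 CPM in negative spheroid cells, 91.6 and 292 CPM in primary adipose and bowel cells, and 0.308, 0.199 and 1.37 CPM in the adipose, M2 and M1 neurospheres. It was high in the primary libraries and near or below 3 CPM in every cultured library. Dcn and Lum are neighbours on mouse chromosome 10 in build GRCm38 (Dcn chromosome 10, 97479500 to 97518163; Lum chromosome 10, 97565501 to 97572703), with Kera and Epyc beyond them.

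The 4 hyaluronan-binding proteoglycans, or lecticans, crosslink hyaluronan; aggrecan (Acan) and versican (Vcan) are widespread in cartilage and connective tissue, while neurocan (Ncan) and brevican (Bcan) are nervous system forms. Vcan had 7.97, 12 and 75.1 CPM in neurospheres of adipose tissue, M2 and M1, 27 and 20.04 CPM in the primary adipose and bowel cells, and 28.7 and 411 CPM in the positive and negative cells of spheroids, highest in the negative cells. Acan was found almost solely in 1 library, with 0.0625 and 0 CPM in adipose and bowel primary cells, 57.8, 0 and 0.0771 CPM in adipose, M2 and M1 neurospheres, and 0 and 0.294 CPM in positive and negative spheroid cells; outside adipose neurospheres no library held more than 19 reads of it. Ncan stood at 1.59 CPM in positive and 0.0618 CPM in negative spheroid cells, 0 and 2.76 CPM in primary adipose and bowel cells, and 0.325, 6.43 and 9.06 CPM in the adipose, M2 and M1 neurospheres. Bcan was measured at 0.666, 24.8 and 52.4 CPM in neurospheres of adipose tissue, M2 and M1, 0.375 and 11.6 CPM in the primary adipose and bowel cells, and 1.19 and 0.186 CPM in the positive and negative cells of spheroids. Ncan and Bcan were highest in M1 neurospheres, then M2, then bowel primary cells, and both were under 1 CPM in the adipose libraries and the negative cells.

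The sequences before the start sites of Ncan and Bcan are shown because these genes have the same 5 highest libraries in the same order. Those of Gpc3 and Gpc4 are shown because these glypicans are neighbours on chromosome X and differ in their levels, as given further on. Each is the 250 bases upstream of a RefSeq start site in GRCm38.p6, read 5′ to 3′ on the gene's strand, which is the minus strand for all 4. Capitals mark matches, on either strand, of the GC box letters GGGCGG or the TATA box letters TATAAA.
Ncan, chr8:70120845-70121094: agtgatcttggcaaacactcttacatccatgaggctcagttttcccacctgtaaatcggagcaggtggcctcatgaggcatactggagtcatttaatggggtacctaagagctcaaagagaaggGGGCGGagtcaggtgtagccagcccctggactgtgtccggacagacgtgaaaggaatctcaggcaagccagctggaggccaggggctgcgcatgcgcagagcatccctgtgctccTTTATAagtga
Bcan, chr3:88000357-88000606: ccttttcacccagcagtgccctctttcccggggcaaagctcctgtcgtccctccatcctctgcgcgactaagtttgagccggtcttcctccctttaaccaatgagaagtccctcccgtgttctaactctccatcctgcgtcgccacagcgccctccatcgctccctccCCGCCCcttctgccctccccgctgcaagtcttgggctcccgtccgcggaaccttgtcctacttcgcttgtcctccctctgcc
Gpc3, chrX:52613975-52614224: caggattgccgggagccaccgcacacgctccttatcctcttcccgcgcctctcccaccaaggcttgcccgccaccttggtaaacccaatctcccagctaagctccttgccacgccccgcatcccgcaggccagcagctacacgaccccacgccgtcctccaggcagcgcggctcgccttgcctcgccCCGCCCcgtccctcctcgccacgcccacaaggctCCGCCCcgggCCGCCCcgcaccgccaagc
Gpc4, chrX:52164924-52165173: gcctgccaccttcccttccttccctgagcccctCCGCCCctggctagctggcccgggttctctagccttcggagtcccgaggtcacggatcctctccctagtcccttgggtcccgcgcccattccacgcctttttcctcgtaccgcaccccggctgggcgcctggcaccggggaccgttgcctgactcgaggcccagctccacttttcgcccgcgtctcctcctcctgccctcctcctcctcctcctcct
All 250 Bcan bases lie inside the longest annotated span of that gene, as do the last 19 Ncan bases, which hold the TATA match. The GC box letters were found in all 4 and the TATA box letters in Ncan alone. The Ncan match reads TTTATA, so it lies on the strand opposite to the gene's. Among 32851 promoters searched over the same 250 bases before the start, 32.7% held a GC box and 12.4% a TATA box. Promoters were available for 31 of the 42 genes, 37 in all, of which 23 held a GC box and 6 a TATA box. Searched in the same way on both strands, the AP-1 letters TGANTCA were in 2 of the 37 against 6.75% of all promoters, and the SOX letters ACAATG in 0 of the 37 against 10.7%. None of these matches shows that a factor binds.

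Basement membrane components line epithelia, muscle, fat and Schwann cells. Perlecan (Hspg2) had 124 and 21.2 CPM in adipose and bowel primary cells, 97.3, 184 and 85.4 CPM in adipose, M2 and M1 neurospheres, and 380.2 and 179 CPM in positive and negative spheroid cells, highest in the positive spheroid cells and lowest in bowel primary cells. Agrin (Agrn), which organises the neuromuscular synapse, stood at 1112 CPM in positive and 139 CPM in negative spheroid cells, 72.3 and 43.8 CPM in primary adipose and bowel cells, and 275, 438 and 461 CPM in the adipose, M2 and M1 neurospheres. All 4 cultured positive libraries exceeded both primary libraries for Agrn. Nidogen-1 (Nid1), a linker of laminin and collagen IV, ranged from 388 CPM in bowel primary cells to 2755 CPM in the positive spheroid cells. Nidogen-2 (Nid2) did not follow it, with 47.8, 71.4 and 44.9 CPM in neurospheres of adipose tissue, M2 and M1, 1042 and 46.5 CPM in the primary adipose and bowel cells, and 30.8 and 12.7 CPM in the positive and negative cells of spheroids. Adipose primary cells stood alone as the high library for Nid2; its annotated span overlaps the gene Rtraf.

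Elastic fibre genes include elastin (Eln), the fibrillin scaffold (Fbn1 and Fbn2) and the fibulins and emilin that join them. Fbln1 was measured at 24.1 and 141 CPM in adipose and bowel primary cells, 3.21, 300.4 and 733 CPM in adipose, M2 and M1 neurospheres, and 320.1 and 749 CPM in positive and negative spheroid cells. Fbln2 reached 735 CPM in positive and 2008 CPM in negative spheroid cells, 115 and 196 CPM in primary adipose and bowel cells, and 352, 88.3 and 309 CPM in the adipose, M2 and M1 neurospheres. Fbln5 had 2.27, 82.5 and 300.1 CPM in neurospheres of adipose tissue, M2 and M1, 174 and 185 CPM in the primary adipose and bowel cells, and 152 and 5.75 CPM in the positive and negative cells of spheroids. The 3 fibulins had different low libraries: both adipose libraries for Fbln1, M2 and adipose primary cells for Fbln2, and adipose neurospheres and the negative spheroid cells for Fbln5. Fbn1 stood at 70.5 and 64.3 CPM in adipose and bowel primary cells, 12.4, 25.3 and 60.3 CPM in adipose, M2 and M1 neurospheres, and 18.3 and 975 CPM in positive and negative spheroid cells. Fbn2 was at 6.48 CPM in positive and 73.3 CPM in negative spheroid cells, 1.83 and 5.93 CPM in primary adipose and bowel cells, and 1.61, 19.7 and 61.4 CPM in the adipose, M2 and M1 neurospheres; it and Fbn1 were highest in the negative cells. Eln had 0.13, 53.6 and 242 CPM in neurospheres of adipose tissue, M2 and M1, 77.6 and 165 CPM in the primary adipose and bowel cells, and 2.96 and 143 CPM in the positive and negative cells of spheroids, where the adipose neurosphere value is 8 reads. Emilin1 was read at 34 and 199 CPM in adipose and bowel primary cells, 169.8, 274 and 633 CPM in adipose, M2 and M1 neurospheres, and 674 and 808 CPM in positive and negative spheroid cells. Adipose primary cells were the lowest library for Emilin1, and the elastin level in adipose neurospheres was below that of the next lowest library, the positive spheroid cells.

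Glypicans are heparan sulfate proteoglycans held in the membrane by a lipid anchor. Gpc1 had 1647 CPM in positive and 325 CPM in negative spheroid cells, 211 and 112 CPM in primary adipose and bowel cells, and 1566, 1589 and 889 CPM in the adipose, M2 and M1 neurospheres, and every cultured positive library lay above the primary libraries and the negative cells. Gpc3, a regulator of hedgehog and Wnt signals, stood at 0.162, 218 and 241 CPM in neurospheres of adipose tissue, M2 and M1, 70.2 and 183 CPM in the primary adipose and bowel cells, and 38.1 and 26.8 CPM in the positive and negative cells of spheroids. The adipose neurosphere value is 10 reads, whereas the next lowest library, the negative spheroid cells, held 26.8 CPM. Gpc4 ranged from 22.2 CPM in adipose primary cells to 78.8 CPM in adipose neurospheres, and Gpc6 from 23.2 CPM in adipose primary cells to 150.3 CPM in M1. On chromosome X, Gpc4 (chromosome X, 52051007 to 52164923) and Gpc3 (chromosome X, 52272426 to 52613974) lie 107.5 kb apart. By CPM, the library with the lowest Gpc3 was the one with the highest Gpc4. For Gpc4, though, positive and negative spheroid cells were close, at 73.3 and 69.8 CPM. On scaled reads the negative spheroid cells were highest for Gpc4.

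Syndecans are transmembrane proteoglycans. Sdc3, the form best known from neural cells, had 75.1 and 153 CPM in adipose and bowel primary cells, 1383, 285 and 432 CPM in adipose, M2 and M1 neurospheres, and 961 and 397 CPM in positive and negative spheroid cells, with adipose neurospheres highest and adipose primary cells lowest. Sdc1, an epithelial form, ranged from 12.1 CPM in bowel primary cells to 429 CPM in the negative spheroid cells. Sdc2, a form of mesenchymal cells, ranged only from 136 to 221 CPM over all 7 libraries, the narrowest of the 42 genes on scaled reads at 1.96-fold. Sdc4, a form found at focal adhesions, ranged from 82.4 to 369 CPM. Sdc2, Sdc4, Gpc4, Sparc and Nid1 were the 5 genes that were neither higher nor lower in any of the 8 comparisons. The share of all genes in that position was not counted.

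**Figure D2:**
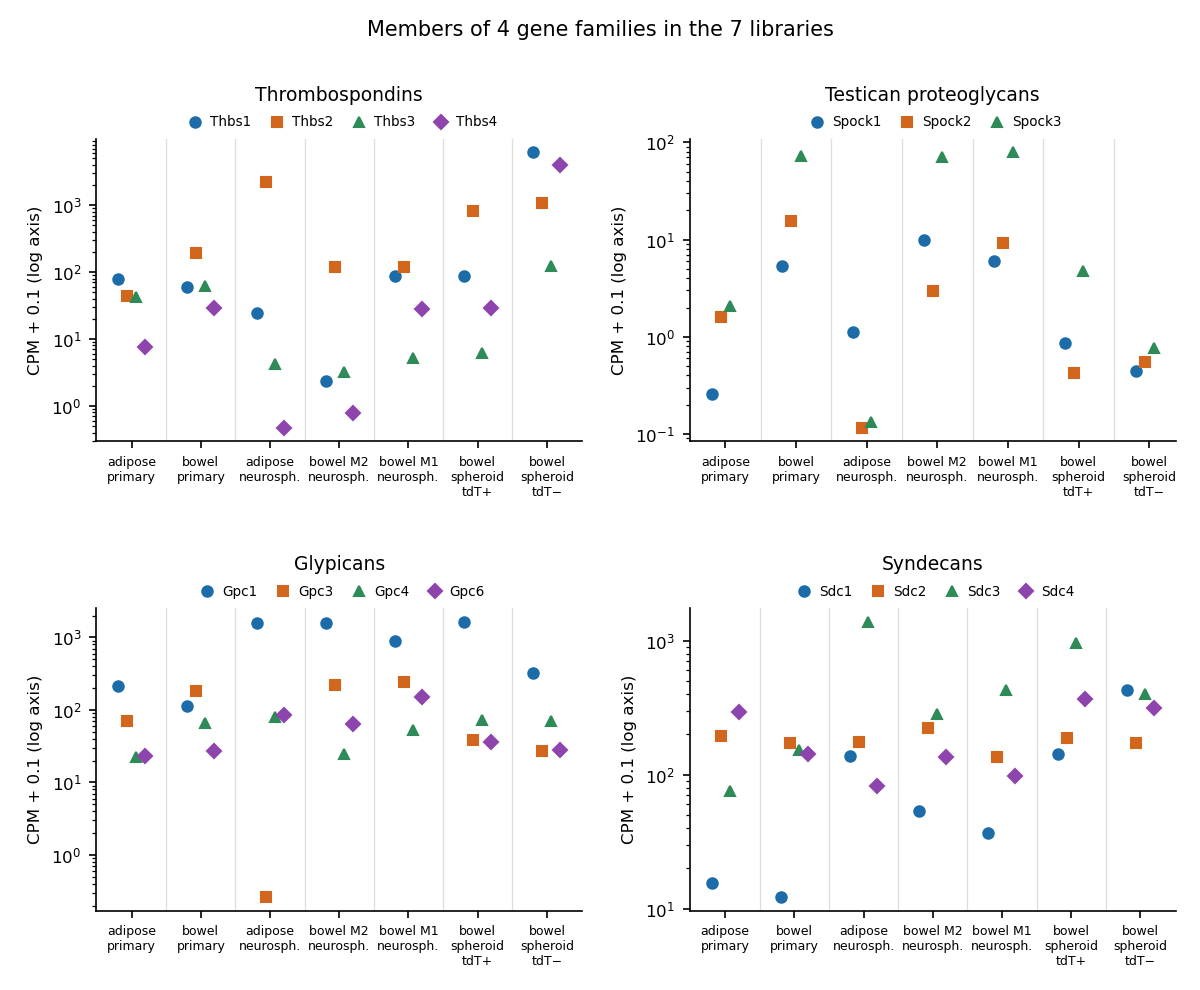
CPM plus 0.1 on a log axis for the members of the thrombospondin, testican, glypican and syndecan families in the 7 libraries, 1 point per library and gene. Thbs4, Thbs1, Spock3 and Gpc3 have far-apart high and low libraries, and Sdc2 and Gpc4 lie close together over the 7 libraries.

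The first comparison set the positive against the negative cells of the same mixed bowel spheroids, and so asks which matrix transcripts belong with the neural crest-derived cells. The negative cells held more mRNA for fibronectin, thrombospondins, fibrillins, elastin and all 5 small leucine-rich proteoglycans. The positive cells held more for fibulin-5, agrin, periostin, glypican-1 and the nervous system proteins neurocan, brevican, tenascin-R and Spock3. Of 39 genes measured, 8 were higher and 15 lower in the positive cells, and 16 were neither. Over all 13951 genes measured, 6.64% were higher and 12.5% lower by the same rule. The median log2 ratio was -0.61 for the members and 0.01 for all genes.

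Small leucine-rich proteoglycans were lower in the positive cells for 5 of 5 genes. The log2 ratio was -6.74 for Lum (95% counting interval -6.79 to -6.68), -5.74 for Dcn (-5.77 to -5.72), -5.498 for Fmod (-6.63 to -4.93), -5.29 for Bgn (-5.34 to -5.25) and -3.58 for Ogn (-4.63 to -2.998). The Ogn ratio rests on levels of 0.232 and 2.66 CPM. Of 9 glycoproteins 5 were lower: Thbs4 at -7.32 (-7.39 to -7.26), Thbs1 at -6.36 (-6.40 to -6.32), Thbs3 at -4.56 (-4.71 to -4.42), Tnxb at -3.97 (-4.53 to -3.59) and Fn1 at -2.67 (-2.68 to -2.67). Thbs2, at -0.61, was in neither class, so that 3 of the 4 thrombospondins were lower. The elastic fibre, SPARC and lectican groups also held lower genes, namely Fbn1 at -5.97, Eln at -5.82 and Fbn2 at -3.73, Sparcl1 at -4.55 and Vcan at -4.08.

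Fbln5, which tethers elastin to integrins, had the highest ratio of the 42 in the positive cells, 4.48 (4.33 to 4.64), although the elastin gene itself was lower. Agrn was higher by 2.76 (2.73 to 2.79), Postn by 2.37 (2.35 to 2.39) and Gpc1 by 2.10 (2.08 to 2.12). The nervous system genes were higher from low levels: Ncan by 3.94 (3.05 to 6.35), Spock3 by 2.52 (2.11 to 3.07), Tnr by 2.48 (1.69 to 3.89) and Bcan by 2.28 (1.55 to 3.45). In the positive cells these 4 stood between 1.07 and 4.67 CPM, and none reached a minimum of 5 CPM; with that minimum the higher count was 4. No syndecan was higher or lower; Sdc1 had -1.82 and Sdc3 1.03. Spock1, Spock2 and Acan were below 1 CPM in both libraries and were not measured. Fibroblast markers moved with the lower genes, at 343 CPM (5 of 7 at 1 CPM or more) in the positive and 12613 CPM (6 of 7) in the negative cells; their part in these ratios was not tested.

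**Figure D3:**
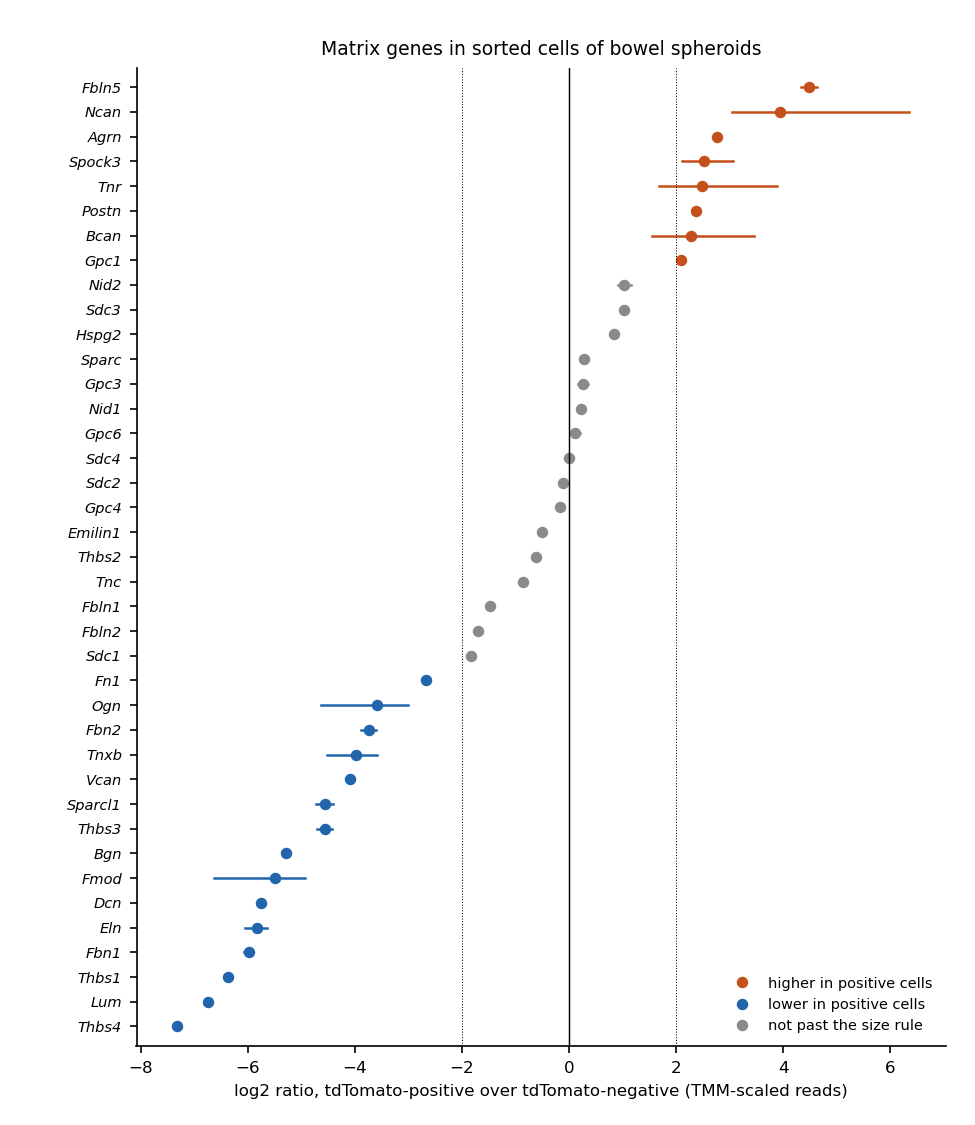
Log2 ratio of each measured gene in positive against negative spheroid cells, with bars for the 95% counting interval, 1 library per group. All 5 small leucine-rich proteoglycans lie left of the lower 4-fold line, and Fbln5, Ncan, Agrn, Spock3, Tnr, Postn, Bcan and Gpc1 lie right of the upper one.

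Other matrix genes, from 7 lists of 120 genes of which 119 were found, moved in the same comparison as follows. Of 103 measured, 13 (12.6%) were higher and 35 (34%) lower in the positive cells, against 6.64% and 12.5% of all genes. Of the other small leucine-rich proteoglycans 6 of 8 were lower, Aspn among them at -7.05, and of the genes for elastic fibre assembly 2 of 18 were higher and 9 lower, Ltbp2 among them at -7.25. Genes that build glycosaminoglycan chains were mostly in neither class, with 0 of 18 higher and 2 lower. The highest ratios belonged to Ptprz1, a receptor phosphatase that is also a chondroitin sulfate proteoglycan, at 7.46, and to the sulfotransferase genes Chst3 at 5.78 and Ndst3 at 5.77.

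The second question was how the tissue of origin differs, first in primary cells. Adipose primary cells held more mRNA of 2 basement membrane components, nidogen-2 and perlecan. Bowel primary cells held more of the 3 testicans, hevin, neurocan, brevican, fibulin-1, emilin-1 and thrombospondin-2. Of 41 genes measured, 2 were higher and 9 lower in adipose cells, against 7.1% higher and 11.4% lower of all 15585 genes. The median log2 ratio of adipose over bowel was -0.79 for the members and 0.09 for all genes.

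Nid2 had a log2 ratio of 4.47 (4.41 to 4.52) and Hspg2 of 2.52 (2.44 to 2.61). The other 2 basement membrane genes were above 0 without passing the rule. In the SPARC family 4 of 5 were lower: Spock3 at -5.20 (-5.48 to -4.96), Spock1 at -4.85 (-6.17 to -4.19), Spock2 at -3.35 (-3.69 to -3.07) and Sparcl1 at -2.23 (-2.25 to -2.21). Ncan had 0 reads in adipose and 159 in bowel primary cells. With adipose cells held at the floor of 3 reads Ncan was 59.6-fold lower, and its counting interval ended at a log2 ratio of -5.58. Bcan had -4.87 (-5.63 to -4.39), Emilin1 -2.57, Fbln1 -2.56 and Thbs2 -2.170. Thbs4 at -1.97, Fbn2 at -1.70 and Ogn at -1.69 were under the 4-fold line, as was Postn at 1.52. All 5 small leucine-rich proteoglycans had ratios below 0, from -1.69 to -0.08, and none passed the rule. Neuronal markers (6 genes) summed to 54.7 CPM in adipose and 1250.2 CPM in bowel primary cells, Schwann cell myelin markers (4 genes) to 4576 and 808 CPM, and smooth muscle markers to 302 and 24364 CPM; the part of these cells in the ratios was not tested.

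After culture, adipose neurospheres were set against bowel M2 neurospheres, which had the same 2 stages of culture. Adipose neurospheres held aggrecan, fibromodulin, thrombospondins 1 and 2, periostin, syndecan-3 and fibulin-2 at higher levels. They held glypican-3, elastin, fibulins 1 and 5, fibrillin-2, the 3 testicans, neurocan, brevican and tenascins R and XB at lower levels. Of 40 genes measured, 7 were higher and 12 lower, against 5.33% and 8.69% of all 13440 genes. Medians were -0.56 for the members and -0.01 for all genes.

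Acan had 3558 reads in adipose neurospheres and 0 in M2. With M2 held at the floor of 3 reads Acan was 1366-fold higher, and its counting interval began at a log2 ratio of 10.12. Fmod followed with a log2 ratio of 7.10 (6.71 to 7.73), then Thbs2 with 4.38 (4.34 to 4.41), Thbs1 with 3.53 (3.31 to 3.80), Postn with 2.83, Sdc3 with 2.40 and Fbln2 with 2.12. At the low end Gpc3 had -10.002 (-11.33 to -9.39), Spock3 -9.97 (-14.02 to -9.12; 2 reads in adipose neurospheres), Eln -8.24 (-9.78 to -7.59), Fbln1 -6.41 (-6.64 to -6.22) and Spock2 -5.75 (-12.65 to -4.84; 1 read). Fbln5 had -5.04, Bcan -5.03, Ncan -4.06, Fbn2 -3.47, Tnr -3.44, Spock1 -3.10 and Tnxb -2.02. Tnr rests on 6 and 98 reads in adipose and M2 neurospheres, and Tnxb on 19 and 96. With a minimum of 5 CPM in either library, Tnr, Tnxb and Spock2 were not counted. With M1 in place of M2 as the bowel library, 5 were higher and 17 lower, and Thbs1 changed direction to -1.52; M1 held 87.2 CPM of it and M2 2.3 CPM. Fbln2, at 0.48, and Sdc3, at 1.97, were then short of the rule, and Fbln2 was at 1.99 against M2 with scaling by total counts. Sox10 was at 632 CPM in adipose neurospheres and 661 CPM in M2, and neuronal markers summed to 711 CPM (2 of 6 at 1 CPM or more, 1 at 0 reads) and 816 CPM (6 of 6). Fibroblast markers summed to 1382 CPM (5 of 7) in adipose neurospheres and 153 CPM (4 of 7) in M2. Most of both sums came from collagen genes. Col1a2 stood at 770.2 and 7.52 CPM, Col1a1 at 325 and 24.7 CPM, and Col3a1 at 284 and 117 CPM. Pdgfra was at 1.98 and 2.42 CPM and Dpt at 1.31 and 0.505 CPM. Pi16 was at 0.0812 and 0.0306 CPM and Clec3b at 0.0325 and 0.184 CPM. The part of such cells in the ratios was not tested.

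The tissue comparisons in primary cells and in neurospheres share no library. Of the 9 genes lower in adipose primary cells and the 12 lower in adipose neurospheres, 6 were in both lists, 66.7% of the first and 50% of the second: Bcan, Fbln1, Ncan, Spock1, Spock2 and Spock3. Over all genes 392 were lower in both, 22.1% of 1775 and 33.6% of 1168. Thbs2 went the opposite way, lower in adipose primary cells and higher in adipose neurospheres, 1 of 7 members in both lists against 198 of 677 genes (29.2%) over all. Of the 2 genes higher in adipose primary cells, 0 were higher in adipose neurospheres, against 87 of 1107 genes (7.86%) over all. Nid2, at -0.46, was in neither class between the neurosphere libraries.

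**Figure D4:**
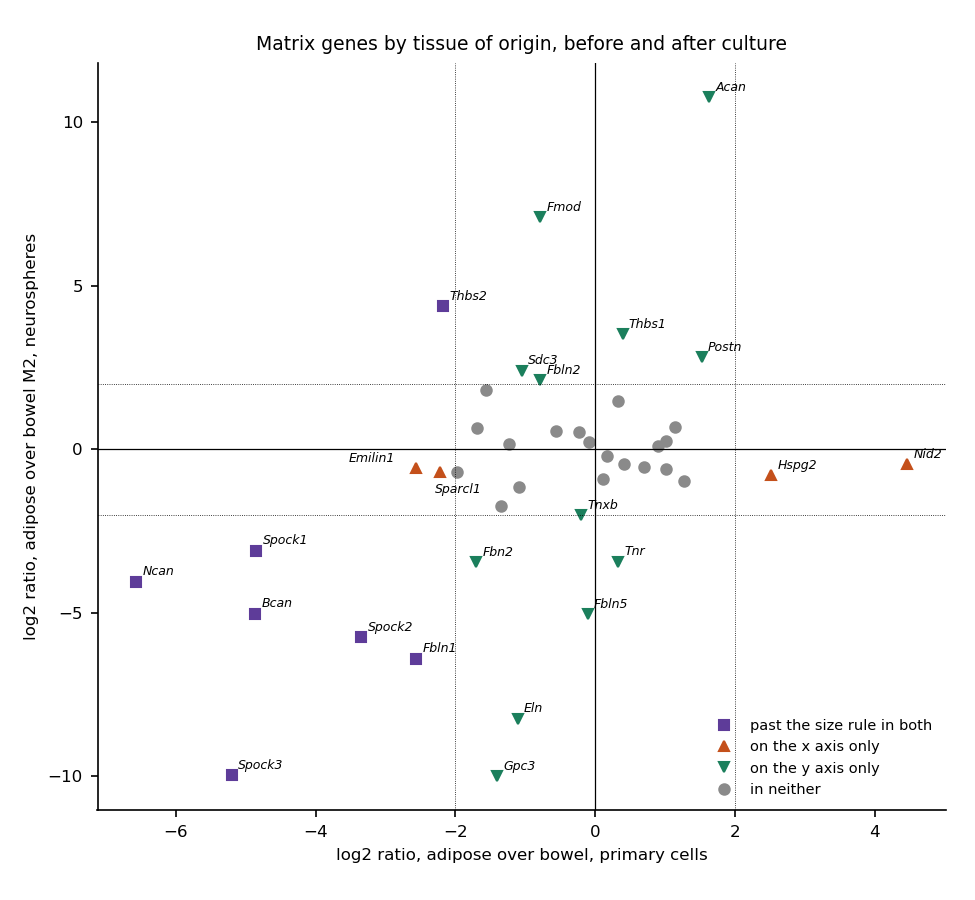
Log2 ratio of adipose over bowel for each gene, in primary cells on the x axis and in neurospheres (adipose against M2) on the y axis; each point is 1 gene from 1 library per group, and Ncan and Acan, with 0 reads in a library, are drawn at the ratio that the prior count gives. The Spock genes, Ncan, Bcan and Fbln1 lie in the lower left, Thbs2 lies in the upper left, and Nid2 lies far right near 0 on the y axis.

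Among the other matrix genes, 18 of 105 (17.1%) were higher and 9 (8.57%) lower in adipose primary cells, against 7.1% and 11.4% of all genes. In adipose neurospheres 14 of 91 (15.4%) were higher and 17 (18.7%) lower, against 5.33% and 8.69%. Vwa1, a basement membrane protein of peripheral nerve, had 4.41 in primary cells. In neurospheres Smoc2 (7.59), Mgp (6.15) and Spp1 (5.90), all secreted matrix proteins, had the highest ratios. Hs6st2, a heparan sulfate sulfotransferase, Cspg5, a neural proteoglycan, and Matn4 had the lowest, -8.01, -7.99 and -6.25. Of 18 genes for glycosaminoglycan chain synthesis, 0 were higher or lower between neurospheres, and 2 were higher between primary cells.

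The third question was what changed between primary cells and neurospheres of the same tissue. In adipose cells, elastin, glypican-3, osteoglycin, decorin, lumican, tenascin-XB and fibulin-5 were lower after culture with log2 ratios of -6.39 or below, and aggrecan, thrombospondin-2 and syndecan-3 were higher. Of 40 genes measured, 7 were higher and 16 lower in neurospheres, against 5.72% and 20.8% of all 14773 genes, with a member median of -1.23 beside -0.01.

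Acan had a log2 ratio of 9.15 (8.35 to 11.58) from 4 reads in primary cells, Thbs2 of 5.56 (5.505 to 5.61), Sdc3 of 4.05, Sdc1 of 3.02, Gpc1 of 2.74, Spock1 of 2.36 and Emilin1 of 2.171. Of the 8 glypicans and syndecans, 3 were higher, 1 (Gpc3) was lower and 4 were in neither class: Sdc4 at -1.99, Sdc2 at -0.31, Gpc4 at 1.68 and Gpc6 at 1.73. The lowest ratios were -9.04 for Eln (-10.58 to -8.39), -8.64 for Gpc3 (-9.96 to -8.02), -8.21 for Ogn (-9.09 to -7.72), -6.60 for Dcn (-6.71 to -6.49) and -6.48 for Lum (-6.70 to -6.29). Lower values were also found for Tnxb (-6.41), Fbln5 (-6.39), Spock2 (-5.11, interval -11.99 to -4.16), Spock3 (-5.08, interval -9.13 to -4.19), Nid2 (-4.59), Thbs4 (-4.35), Tnr (-4.08), Sparcl1 (-4.06), Thbs3 (-3.47), Fbln1 (-3.04) and Fbn1 (-2.65). Bgn and Fmod, the other 2 small leucine-rich proteoglycans, had -0.68 and 1.34 and were in neither class.

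In bowel cells, M2 neurospheres held more glypican-1, agrin, perlecan and tenascin-C than primary cells, and less osteoglycin, decorin, fibromodulin, lumican, hevin, thrombospondins 1, 3 and 4, tenascin-XB and Spock2. Of 41 genes measured, 4 were higher and 10 lower, against 5.89% and 21% of all 15189 genes, and the member median was -0.32 beside -0.07. Higher ratios were 3.54 for Gpc1 (3.50 to 3.58), 3.04 for Agrn, 2.83 for Hspg2 and 2.74 for Tnc. Lower ratios were -10.56 for Ogn (-11.71 to -10.03), -7.99 for Dcn, -6.54 for Fmod, -6.42 for Lum, -5.64 for Thbs4, -5.59 for Sparcl1, -4.96 for Thbs1, -4.59 for Tnxb, -4.57 for Thbs3 and -2.70 for Spock2. Biglycan alone of the 5 small leucine-rich proteoglycans was in neither class, at -0.97.

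M1 neurospheres, set against the same primary library, had 6 of 41 genes higher and 7 lower, against 6.59% and 16.4% of all 15422 genes, with a member median of 0.09 beside -0.07. Tnc (3.34), Agrn (2.93), Fbn2 (2.91), Gpc1 (2.53), Bgn (2.15) and Gpc6 (2.03) were higher. Ogn (-8.15), Sparcl1 (-5.78), Dcn (-4.46), Thbs3 (-4.03), Tnxb (-3.37), Lum (-2.91) and Fmod (-2.33) were lower. Scaled by total counts, which moved the median of all genes by 0.46, 9 were higher and 6 lower, Fmod at -1.88 being short of the rule. Fibroblast markers summed to 10871 CPM in adipose primary cells and 1382 CPM in their neurospheres, and to 2331, 1225 and 153 CPM in bowel primary cells, M1 and M2. Macrophage markers summed to 1159 CPM in bowel primary cells and 11 CPM in M2. Smooth muscle markers went from 24364 CPM in bowel primary cells to 82.3 in M1 and 20.9 CPM in M2, and acinar markers from 34533 to 3.14 and 2.31 CPM. Schwann cell myelin markers went from 4576 CPM in adipose primary cells to 24.4 CPM in their neurospheres. The part of these cells in the ratios was not tested.

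Culture of adipose and of bowel cells was compared on separate libraries. Of the 16 genes lower in adipose neurospheres and the 10 lower in M2, 8 were in both lists, 50% of the first and 80% of the second: Dcn, Lum, Ogn, Sparcl1, Spock2, Thbs3, Thbs4 and Tnxb. Over all genes 1657 were lower in both, 54% of 3068 and 52% of 3187. Gpc1 was the gene higher in both, 14.3% of 7 and 25% of 4, against 202 of all genes, 23.9% of 845 and 22.6% of 894. With M1 in place of M2, 6 lower genes were in both lists, 37.5% of 16 and 85.7% of 7, against 44.2% of 3068 and 53.8% of 2522 over all genes, and Gpc1 was again higher in both. Of the 9 members called in both tissues with M2, 0 were higher in one and lower in the other, against 161 of 2020 genes (7.97%) over all; with M1 this was 0 of 7, against 152 of 1695 (8.97%). Hspg2 and Agrn, higher in M2, had -0.50 and 1.78 in adipose cells.

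**Figure D5:**
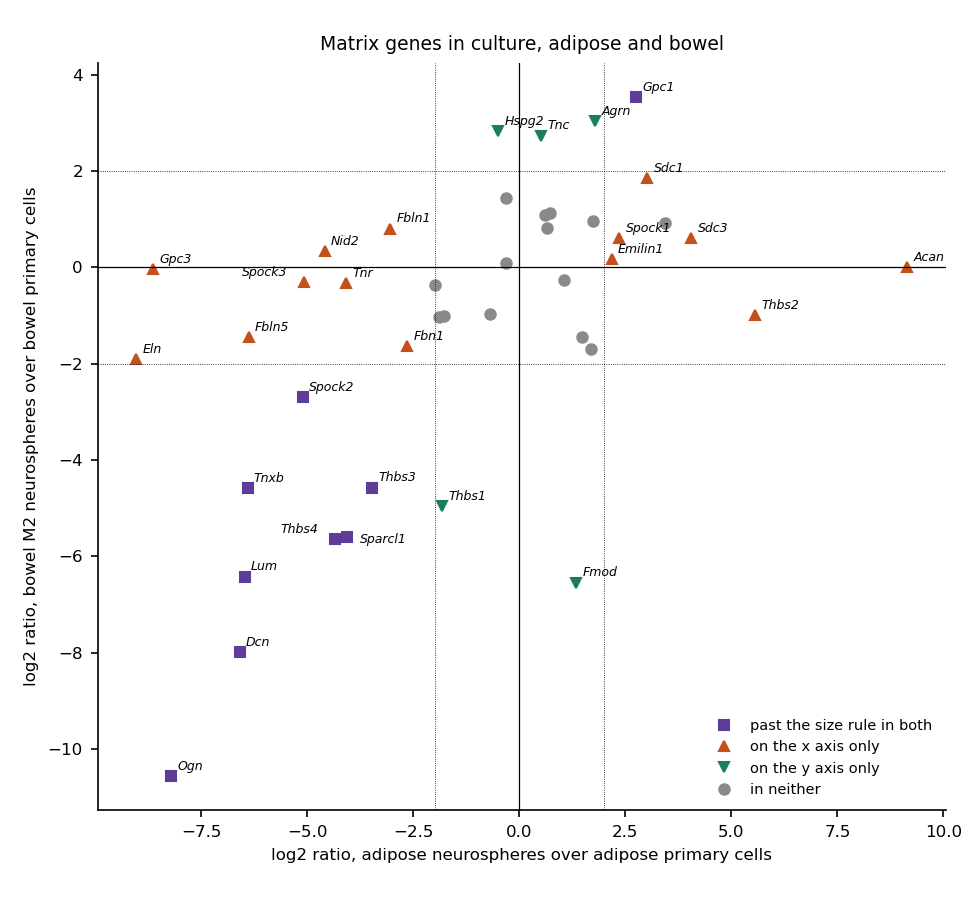
Log2 ratio of neurospheres over primary cells for each gene, adipose cells on the x axis and bowel cells (M2) on the y axis; each point is 1 gene from 1 library per group, genes at 0 reads being drawn at the ratio that the prior count gives. Ogn, Dcn, Lum, Thbs4, Sparcl1, Tnxb, Thbs3 and Spock2 lie in the lower left and Gpc1 in the upper right, while Eln and Gpc3 lie far left without reaching the lower 4-fold line of the y axis.

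Of the other matrix genes, 13 of 105 (12.4%) were higher and 36 (34.3%) lower in adipose neurospheres, against 5.72% and 20.8% of all genes. In M2 14 of 102 (13.7%) were higher and 37 (36.3%) lower, against 5.89% and 21%. The lowest in adipose neurospheres were Efemp1 (-11.19), a fibulin-like protein, Srgn (-10.31), a proteoglycan of blood cell granules, and Mfap4 (-9.39), a microfibril protein. In M2 the lowest included Mfap5 (-9.23) and the highest were Hs6st2 (6.44), Tsku (5.34) and Has2 (5.21), a hyaluronan synthase.

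The last comparisons concern the bowel culture methods. Set against M1, M2 neurospheres had 9 of 41 genes lower and 0 higher, against 7.35% lower and 1.2% higher of all 14141 genes, with medians of -0.60 and -0.08. The 5 small leucine-rich proteoglycans were all lower: Fmod at -4.21 (-4.85 to -3.80), Dcn at -3.53 (-3.64 to -3.42), Lum at -3.51 (-3.65 to -3.38), Bgn at -3.12 (-3.17 to -3.07) and Ogn at -2.41 (-3.59 to -1.74). Thbs4 at -5.11 (-5.65 to -4.75), Thbs1 at -5.05 (-5.32 to -4.84), Vcan at -2.47 and Eln at -2.003 were the other 4; with DESeq2 size factors Eln was at -1.999, short of the 4-fold line, and 8 were lower. The Ogn ratio rests on 13 reads in M2 and 71 in M1, and with a minimum of 5 CPM Ogn was not counted. Fibroblast markers summed to 1225 CPM in M1 and 153 CPM in M2, and mesothelial markers to 78.7 and 0.291 CPM. The part of these cells in the ratios was not tested. The nervous system genes had ratios of -0.32 for Ncan, -0.90 for Bcan and 0.02 for Spock3, all in neither class. Of 97 other matrix genes measured, 2 were higher and 16 lower in M2, Mgp lowest at -5.72.

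Against the positive spheroid cells from which they were grown, M2 neurospheres had 7 of 39 genes higher and 7 lower, against 3.07% and 3.84% of all 13432 genes, with medians of -0.92 and -0.02. Brevican, elastin, the 3 testicans, hevin and glypican-3 were higher in M2, and thrombospondins 1, 2 and 4, decorin, lumican, fibulin-2 and fibronectin were lower. Bcan had a log2 ratio of 4.23 (3.94 to 4.62), Eln of 4.05 (3.86 to 4.29), Spock3 of 3.80 (3.65 to 3.99), Spock1 of 3.50, Spock2 of 2.90, Sparcl1 of 2.89 and Gpc3 of 2.40. Thbs4 had -5.47 (-6.01 to -5.12), Thbs1 -5.36 (-5.63 to -5.15), Dcn -3.94 (-4.06 to -3.84), Fbln2 -3.17, Fn1 -2.99, Thbs2 -2.92 and Lum -2.68. Spock1, Spock3 and Bcan thus stood in M2 at 9.83, 71.1 and 24.8 CPM, beside 5.25, 72.2 and 11.6 CPM in bowel primary cells, whereas Spock2, at 2.85 CPM, was below its primary level of 15.3 CPM. The M2 comparisons share libraries with one another and with the sort, so that their counts are not independent.

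A less strict rule, 2-fold or more with the counting interval wholly beyond 1-fold, called more members in each comparison, beside more of all genes. In the sort, 10 members were higher and 18 lower in the positive cells, against 14.3% and 19.2% of all genes. Between primary cells 7 were higher and 19 lower in adipose cells (17.1% and 18.8%), and between neurospheres 9 and 14 (13% and 17.4%). After culture of adipose cells 13 were higher and 20 lower (17.6% and 29.2%), in M2 8 and 17 (19.3% and 29.6%), and in M1 14 and 12 (19.7% and 26.4%). M2 against M1 gave 3 and 18 (6.32% and 16.6%), and M2 against positive spheroid cells 11 and 18 (8.12% and 11.6%).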

How the data were processed

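RNA of 7 mouse cell pools was sequenced, 1 library per group. Full-length cDNA was amplified with SMART-Seq v4 and made into Nextera XT libraries, per the labels' protocols. The values are CPM per gene as deposited by the authors; bcl2fastq 2.17, HISAT and featureCounts were used with mm10, per the submitters' processing notes. The sources used here give no settings, strand use or annotation, so the 21 members that overlap another gene are uncertain, and near-identical copies can lose reads. The reads carry no molecular identifiers, so intervals and floors cover counting error only.

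The deposited CPM were turned back into whole reads: 100% of values were whole multiples of 1 read within 0.05 read. Of 27179 identifiers, 25275 matched a RefSeq table of GRCm38; the others held 0.222% to 0.351% of reads. With 1 library per group no residual degrees of freedom remain to estimate the spread between replicates. No count test was run, and ratios without p-values are given. TMM factors over the 7 libraries set the scaling (edgeR 4.0.16, R 4.3.3; 16461 genes). Log2 ratios used a prior count of 2, so ratios of low genes are understated, with 95% exact conditional binomial intervals. A gene was measured at 1 CPM or more in either library, and called at 4-fold or more with the interval beyond 2-fold. Fold differences against 0 reads hold that library at 3 reads, which is a floor and not the end of the counting interval. CPM per kilobase used exon lengths of GENCODE M21. Promoters and motifs came from RefSeq (GRCm38.p6). The steps were tested on simulated data. Tables were handled in Python 3.11.15 with pandas 2.3.3 and numpy 2.4.6, intervals came from scipy 1.17.1, and plots from matplotlib 3.10.9.

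The members, the 7 other matrix lists, the 12 marker lists and the tests were chosen with earlier results of these data known. All 42 members are named. Those past the rule in the sort or a tissue comparison have their value in each library, and the others their range. Of the other matrix genes, those with the 3 highest or 3 lowest ratios among called genes may be named; the neighbours named by position were chosen after their values were seen. The alternatives tried were DESeq2 1.42.0 size factors, total counts, a minimum of 5 CPM, no filter, a prior count of 0.5, a 2-fold rule, and M1 as the bowel neurosphere library. The sum of 1 marker list is not reported here. No library was left out.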

Additional observations from a re-analysis of the deposited data

Results flagged for a closer look

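For 7 matrix genes the ratio of adipose over bowel passed the size rule in primary cells and in neurospheres (adipose against M2) in opposite directions, of 15 matrix genes that passed it in both (46.7%); over all genes this was 198 of 677 (29.2%). Each rests on 1 library per group, and the difference between the tissues before and after culture was not tested. Among the members this was Thbs2, with a log2 ratio of -2.17 in primary cells and 4.38 in neurospheres, a difference of 6.55. Among the other matrix genes, Smoc2, a calcium-binding matricellular protein, went from -3.46 to 7.59, a difference of 11.05, and Spp1 (osteopontin) from -2.12 to 5.90, a difference of 8.02. The reverse was found for Hs6st2, from 2.08 to -8.01 (difference -10.08), for Matn4, from 3.40 to -6.25 (difference -9.65), for Vwa1, from 4.41 to -3.70 (difference -8.11), and for Matn2, from 2.59 to -2.64 (difference -5.22). Matn2 and Matn4 encode matrilins, adaptor proteins of the matrix. No group has the number of libraries needed to look for single libraries that stand apart.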

How the results depend on the processing

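No paired analysis was possible because each group has 1 library, and leaving out a library was not possible for the same reason. Of 126 calls of members over the 8 comparisons, 126 held with a prior count of 0.5, 125 with DESeq2 size factors and 124 with total counts; the exceptions were Eln between M2 and M1 at -1.999, Fbln2 between neurospheres of both tissues at 1.99 and Fmod between M1 and bowel primary cells at -1.88. A minimum of 5 CPM took out 15 of the 126, genes below it in both libraries, and brought the count higher in positive spheroid cells to 4. Removing the filter moved no count by more than 1.5 times. Under a 2-fold rule the counts of higher and lower members became 7 and 19 between primary cells, 8 and 17 between M2 and bowel primary cells, 14 and 12 between M1 and bowel primary cells, 3 and 18 between M2 and M1, and 11 and 18 between M2 and positive spheroid cells, and the count higher in adipose neurospheres than in primary cells became 13. With M1 as the bowel neurosphere library 16 of 19 calls held and 1, Thbs1, reversed to -1.52; its values are given with that comparison. Total counts moved the median of all genes by 0.46 for M1 and 0.29 for M2 against bowel primary cells, 0.24 in the sort, 0.15 for adipose culture, -0.17 for M2 against M1, -0.12 between neurospheres and 0.11 for the second culture stage. Depth limits ratios with few reads in the low library, such as those of the testicans, Ncan, Bcan, Acan and Tnr, and of Eln, Gpc3, Ogn and Fmod where they are low.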

Other observations

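The 4 hyaluronan-binding proteoglycans each lie next to a gene of a hyaluronan link protein. Hapln1 lies 43.5 kb from Vcan and ranged from 1.81 CPM in M2 neurospheres to 12.6 CPM in bowel primary cells, with 3.05 CPM in the negative spheroid cells, the library highest for Vcan. Hapln3 lies 1.93 kb from Acan and was highest in the negative spheroid cells, at 1.22 CPM, with 0.39 CPM in adipose neurospheres, the library highest for Acan. Hapln4 lies 2.22 kb from Ncan and ranged from 0.659 CPM in bowel primary cells to 4.35 CPM in adipose neurospheres, with 4.24 CPM in M1 neurospheres, the library highest for Ncan. Hapln2, next to Bcan, was at 0.495 CPM or less in every library, under the 1 CPM taken as measured.

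On chromosome X, Hs6st2, Gpc4 and Gpc3 follow one another. Hs6st2 was at 0.162 CPM in adipose and 54.5 CPM in M2 neurospheres, and Gpc3 at 0.162 and 218 CPM. Gpc4, between them, was at 78.8 CPM in adipose and 24.5 CPM in M2 neurospheres. On chromosome 13, Aspn, Omd and Ogn encode small leucine-rich proteoglycans side by side. Between adipose primary cells and adipose neurospheres, Aspn went from 53 to 16.9 CPM, Omd from 9.18 to 0.292 CPM and Ogn from 91.6 to 0.308 CPM. Omd and Ogn were lower after culture of adipose cells (log2 ratios -4.97 and -8.21), and Aspn, at -1.79, was in neither class.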
